A study of Mus musculus with 5 samples.

Results

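The 9 genes described here carry out the synthesis, transport and breakdown of the monoamine transmitters dopamine, noradrenaline and serotonin. They were chosen by symbol: Th, Ddc, Slc18a2, Slc6a3, Dbh, Tph2, Slc6a4, Maoa and Maob, which are 9 of the 47729 genes in the count table. RNA sequencing had been carried out on brain from 5 male C57BL/6 mice, an inbred laboratory strain, aged 30 months. All 5 belong to 1 group and are called mice 7, 8, 9, 10 and 11 after their labels. The labels name no treatment, no altered gene and no other age, and do not say which part of the brain was taken. They do not state that each library came from a separate animal, so spreads and p-values measure the differences between these samples, which may be technical in part. Errors are SDs over the 5 mice (n = 5).

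Monoamines are made by a small number of neurons whose cell bodies sit in compact nuclei of the midbrain, pons and medulla, with some in the hypothalamus and olfactory bulb. Tyrosine hydroxylase (Th) starts catecholamine synthesis and tryptophan hydroxylase 2 (Tph2) starts serotonin synthesis, Ddc (aromatic amino acid decarboxylase) completes dopamine and serotonin, and Dbh (dopamine beta-hydroxylase) turns dopamine into noradrenaline. The vesicular transporter Slc18a2 (VMAT2) loads all of them into synaptic vesicles, the dopamine transporter Slc6a3 and the serotonin transporter Slc6a4 take them back from the synapse, and the mitochondrial monoamine oxidases Maoa and Maob degrade them. The synthesis and uptake genes mark the monoamine neurons, while the oxidases are also made by glia and other cells.

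The libraries held between 15392006 and 18723390 counts, and all 9 genes averaged 10 or more counts, the filter used. Markers of neurons and glia were present in each library, among them Slc17a7 (excitatory neurons, 348 ± 101 RPKM), Elavl4 (neurons, 17.0 ± 0.584 RPKM), Slc1a2 (astrocytes, 305 ± 55.7 RPKM), Sox9 (astrocytes, 8.69 ± 2.84 RPKM), Slc2a1 (endothelium, 35.2 ± 9.52 RPKM) and Emcn (endothelium, 0.889 ± 0.206 RPKM). Mouse 11 stood apart in composition: relative to the mean of the mice, log2 CPM (counts scaled to the library total) rose by 0.52 for each 10 percentage points of transcript GC content, against slopes between -0.26 and 0 in the others.

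Levels are given in RPKM, counts divided by gene length and scaled to the total of the same library, which allows genes to be compared with each other. The oxidases had the highest means, Maob with 10.4 ± 2.11 and Maoa with 7.41 ± 2.16 RPKM. Th (5.52 ± 2.31), Slc18a2 (5.06 ± 2.72), Ddc (4.67 ± 1.56) and Slc6a3 (4.34 ± 1.90 RPKM) followed within a narrow range. Tph2 had 3.18 ± 2.77 RPKM, Slc6a4 1.51 ± 1.16 RPKM and Dbh 0.286 ± 0.282 RPKM, so for these last genes the SD was 87.2%, 76.9% and 98.7% of the mean. The order of neighbours was tested within mice on the log2 ratio of RPKM (pseudocount 0.1) with an exact two-sided permutation test that flips the sign of each mouse, whose smallest possible p with 5 mice is 0.063, so no pair could pass 0.05. Of the 8 neighbouring pairs in this order, Maob over Maoa, Tph2 over Slc6a4 and Slc6a4 over Dbh had the same sign in 5 of 5 mice (exact p = 0.063, adjusted p = 0.125 over 14 pairs). Neighbours from Maoa down to Tph2 changed places between mice, with exact permutation p-values between 0.188 and 1, and were not distinguishable beyond their spread.

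**Figure D1:**
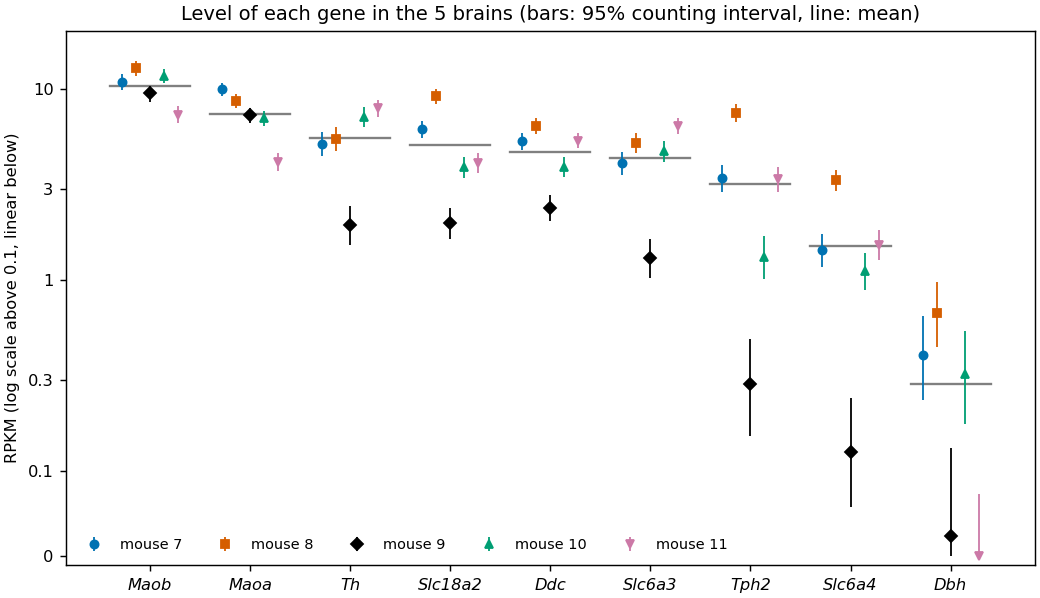
RPKM of the 9 genes (x axis, in the order of their means) in each of the 5 brains, on an axis that is logarithmic above 0.1 and linear below; bars are exact 95% Poisson counting intervals and grey lines the means. Mouse 9 (black) had the lowest value for 6 genes, from 2.38 RPKM for Ddc to 0.127 for Slc6a4, while for Maob and Maoa it lay inside the range of the other mice.

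The serotonin neuron genes had the widest spread among the members with more than 30 counts on average. Tph2, the rate-limiting enzyme of neuronal serotonin synthesis, had 3.40, 7.51, 0.288, 1.32 and 3.36 RPKM in mice 7 to 11, from 152, 333, 13, 61 and 181 counts. Mouse 8 was highest and mouse 9 lowest, 26.1-fold apart in CPM. Slc6a4, which clears serotonin from the synapse, had 1.43, 3.33, 0.127, 1.11 and 1.53 RPKM from 101, 232, 9, 81 and 130 counts. Mouse 8 was again highest and mouse 9 lowest, 26.2-fold apart in CPM. The exact 95% Poisson intervals of mouse 9, 0.153 to 0.493 RPKM for Tph2 and 0.058 to 0.241 RPKM for Slc6a4, did not reach those of any other mouse, the nearest of which began at 1.01 and 0.885 RPKM. In tissue RNA such as this, fewer cells of a type and less RNA per cell cannot be told apart. The ratio of Tph2 to Slc6a4 RPKM was 2.37, 2.26, 2.27 and 2.19 in mice 7, 8, 9 and 11, and 1.19 in mouse 10. In mouse 9 it rests on 13 and 9 counts, and the intervals above also allow the ratio of mouse 10.

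The stretches upstream of Tph2 and Slc6a4 are shown because these genes had nearly parallel levels, and those of Th and Slc18a2 because they were the members with a cyclic AMP response element match. Each runs from 140 bases before to 10 bases after the RefSeq start site (GRCm38.p6), at chr10:115185013-115185162 on the minus strand for Tph2, chr11:76998457-76998606 on the plus strand for Slc6a4, chr7:142899986-142900135 on the minus strand for Th and chr19:59260738-59260887 on the plus strand for Slc18a2. Capitals mark matches to the 6 motifs searched on both strands.
Tph2: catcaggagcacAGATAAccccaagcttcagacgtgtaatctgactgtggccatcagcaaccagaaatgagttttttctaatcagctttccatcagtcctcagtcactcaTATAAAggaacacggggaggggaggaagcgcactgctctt
Slc6a4: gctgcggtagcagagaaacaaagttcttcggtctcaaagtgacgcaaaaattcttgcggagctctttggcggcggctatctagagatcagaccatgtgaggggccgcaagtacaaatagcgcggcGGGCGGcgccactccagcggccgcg
Th: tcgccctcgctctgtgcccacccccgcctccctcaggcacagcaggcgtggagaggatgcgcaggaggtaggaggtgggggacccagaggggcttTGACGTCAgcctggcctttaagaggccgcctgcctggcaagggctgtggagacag
Slc18a2: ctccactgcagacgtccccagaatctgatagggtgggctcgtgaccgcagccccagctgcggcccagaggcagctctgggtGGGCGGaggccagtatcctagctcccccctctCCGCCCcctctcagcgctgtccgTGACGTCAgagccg

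The motifs were counted over the whole window of 300 bases, 250 before and 50 after the start, in the first RefSeq promoter of the 8 members that matched the promoter table, beside 32851 promoters of that length. TGACGT, part of the cyclic AMP response element, occurred in Th and Slc18a2, 2 of 8 members, and in 7.51% of all promoters. In both genes the matches on the 2 strands overlap, at positions -45 and -43 in Th and -4 and -2 in Slc18a2. The motif AGATAA, bound by Gata family factors, occurred in Tph2 (position -128) and Slc18a2 (-230) and in 11.2% of all promoters. TATAAA, the TATA box, occurred in Tph2 (-30) and, on the opposite strand, in Ddc (-68), and in 13.6% of all. In Ddc that match overlaps 1 to AAGGTCA, a nuclear receptor motif found in 4.72% of all promoters and in no other member. A further RefSeq promoter of Ddc, at chr11:11890359-11890658, matched 0 of the motifs. Which promoter was used in these samples was not tested. GGGCGG, the core of the Sp1 motif, occurred in Th, Slc18a2, Slc6a3, Slc6a4 and Maoa, 5 of 8 members, and in 35.7% of all, and CCGGAA, an ETS core, in 0 of 8 and 14.9% of all. Tph2 and Slc6a4, whose levels ran together, had none of these motifs in common in this window. A match describes letters only.

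Among the members, the dopamine neuron genes Th and Slc6a3 shared the low level of mouse 9, but were not highest in mouse 8. Th had 5.14, 5.47, 1.94, 7.14 and 7.91 RPKM in mice 7 to 11, from 189, 199, 72, 271 and 350 counts. Slc6a3, the dopamine transporter found almost only in midbrain dopamine neurons, had 4.08, 5.21, 1.31, 4.72 and 6.40 RPKM, from 219, 277, 71, 262 and 414 counts. For both genes mouse 11 was highest and mouse 9 lowest, 4.07-fold apart in CPM for Th and 4.88-fold for Slc6a3. The place of mouse 11 depends on its GC trend for Th, which has a GC content of 54.1%. When the trend of each library with GC content and length was removed, the log2 deviation of Th was 0.53 in mouse 10 and 0.45 in mouse 11. Slc6a3 stayed highest in mouse 11, at 0.70. Th is also made by noradrenaline, olfactory bulb and hypothalamic neurons, yet its RPKM was between 1.05 and 1.51 times that of Slc6a3 in every mouse. The log2 ratio of the 2 genes averaged 0.36 ± 0.21, positive in 5 of 5 mice (exact permutation p = 0.063, adjusted p = 0.125). After centring on their means, the log2 CPM of Th and Slc6a3 differed by a root mean square of 0.19 over the 5 mice, the smallest difference among the 36 pairs of members, ahead of Maoa and Maob with 0.25, Slc18a2 and Ddc with 0.32 and Tph2 and Slc6a4 with 0.37. Nr4a2, a transcription factor of dopamine neurons that is also widely expressed in the cortex, had 12.6 ± 1.4 RPKM, above Th in 5 of 5 mice, and its SD of log2 CPM was 0.18. Th was therefore 0.136 times Nr4a2 in mouse 9 and between 0.447 and 0.631 times Nr4a2 in the other mice.

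Between the systems the proportions changed from mouse to mouse. Th exceeded Tph2 by 6.74-fold in mouse 9, 5.41-fold in mouse 10, 2.35-fold in mouse 11 and 1.51-fold in mouse 7, but was 0.728 times Tph2 in mouse 8 (exact permutation p = 0.125, adjusted p = 0.219). The dopamine transporter exceeded the serotonin transporter in 5 of 5 mice, from 1.57-fold in mouse 8 to 10.3-fold in mouse 9 (mean log2 ratio 1.74 ± 0.75, exact permutation p = 0.063, adjusted p = 0.125). Mouse 8 had the lowest ratio of dopamine to serotonin transporter RNA and mouse 9 the highest. The ratios of mouse 9 rest on 9 Slc6a4 and 13 Tph2 counts, so counting error leaves them and their rank uncertain. The log2 ratio of Th over Tph2 was 2.4 in mouse 9 and 2.35 in mouse 10.

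**Figure D2:**
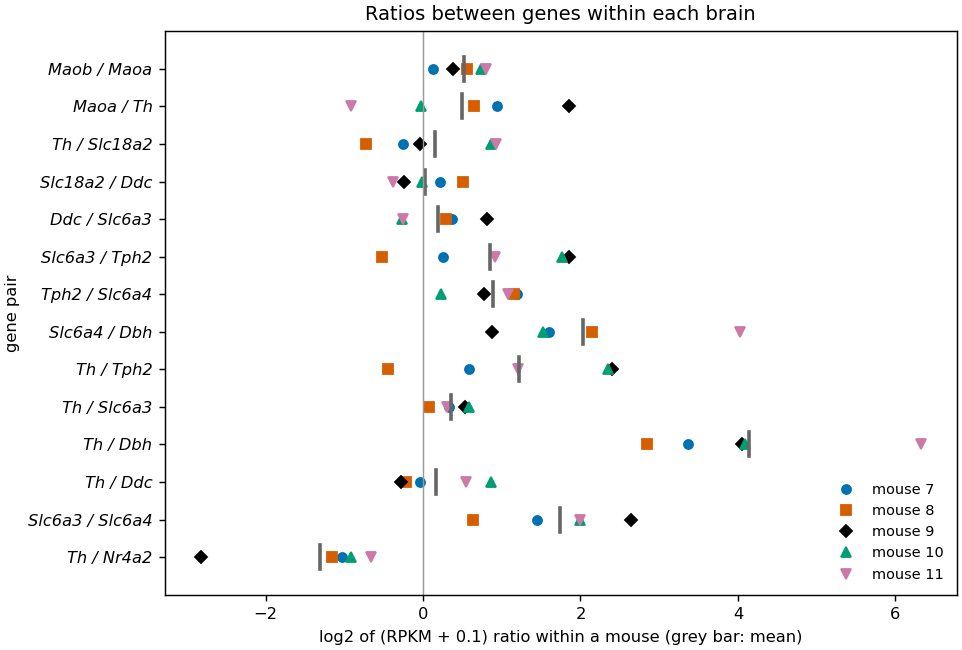
Log2 ratio of RPKM (pseudocount 0.1) between 2 genes within each mouse (x axis) for the 14 pairs compared (y axis); grey bars are means. All 5 mice lie on the same side of 0 for 7 pairs; Th over Slc6a3 is narrow (0.07 to 0.59), while Th over Tph2 runs from -0.45 in mouse 8 to 2.4 in mouse 9.

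Dbh, the marker of noradrenaline neurons, was near the limit of detection. It had 17, 28, 1, 14 and 0 counts in mice 7 to 11, or 0.406, 0.676, 0.0237, 0.324 and 0 RPKM. A count of 0 allows up to 3 counts as a one-sided limit, 0.0595 RPKM in mouse 11, and the two-sided interval plotted for that mouse ends at 0.0732 RPKM. Mice 7, 8 and 10 had more than mice 9 and 11, and the exact 95% Poisson intervals of the 2 sets did not overlap, with the higher ones beginning at 0.177 RPKM and the lower ones ending at 0.132 RPKM. Intervals and limits of this kind cover counting error only. Mouse 11 thus had the highest RPKM of Th and Slc6a3, before removal of the GC trend, and no count of Dbh. Th exceeded Dbh in 5 of 5 mice (mean log2 ratio with pseudocount 4.14 ± 1.33, exact permutation p = 0.063, adjusted p = 0.125). Slc6a2, the noradrenaline transporter, had 11, 46, 6, 26 and 2 counts, and was like Dbh highest in mouse 8 and lowest in mouse 11. Phox2a, a transcription factor of noradrenaline neurons, had 2, 0, 0, 3 and 0 counts in mice 7 to 11.

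Slc18a2 and Ddc serve all monoamine neurons. Slc18a2 had 6.16, 9.14, 2.00, 3.88 and 4.10 RPKM in mice 7 to 11, from 364, 535, 119, 237 and 292 counts. Ddc had 5.31, 6.41, 2.38, 3.90 and 5.36 RPKM, from 368, 440, 166, 279 and 448 counts. Mouse 8 exceeded all others and mouse 9 fell short of all others for both, and these 2 mice were 4.58-fold apart for Slc18a2 and 2.70-fold for Ddc in CPM. Their RPKM ratio lay between 0.765 and 1.43 (mean log2 ratio 0.02 ± 0.35, exact permutation p = 1). The order of these 2 genes depends on the length used: the length implied for Slc18a2 by the deposited values is 3803 bases, 72.8% of its 5225 exon bases in GENCODE M21, and with the latter the mean log2 ratio of Slc18a2 over Ddc was -0.43. For the other 8 genes the implied length was 100% of that in M21. Th and Ddc, successive enzymes of dopamine synthesis, had a mean log2 ratio of 0.17 ± 0.50 and changed order between mice (exact permutation p = 0.5). Without mouse 10 that mean was 0, and without mouse 9 it was 0.28.

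The monoamine oxidases did not share the low level of mouse 9. Maoa, which prefers serotonin and noradrenaline, had 9.94, 8.67, 7.26, 7.02 and 4.17 RPKM in mice 7 to 11, from 644, 556, 474, 469 and 325 counts. Maob, found in astrocytes and serotonin neurons, had 10.9, 12.8, 9.48, 11.7 and 7.33 RPKM, from 471, 549, 414, 522 and 383 counts. Mouse 11 was lowest for both genes, 2.39-fold below mouse 7 for Maoa and 1.74-fold below mouse 8 for Maob in CPM, and mouse 9 lay inside the range. Maob exceeded Maoa in 5 of 5 mice, by 1.09-fold in mouse 7 and up to 1.76-fold in mouse 11 (mean log2 ratio 0.52 ± 0.27, exact permutation p = 0.063, adjusted p = 0.125). Maoa has a GC content of 40.4% and Maob of 45.3%. When the trend of each library with GC content and length was removed, the deviation of mouse 11 moved from -0.71 to -0.28 for Maoa and from -0.42 to -0.17 for Maob, and the SD of Maoa from 0.44 to 0.17. For Tph2, Slc6a4, Th and Slc6a3 the same step left mouse 9 lowest, at -2.76, -2.85, -1.25 and -1.51.

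**Figure D3:**
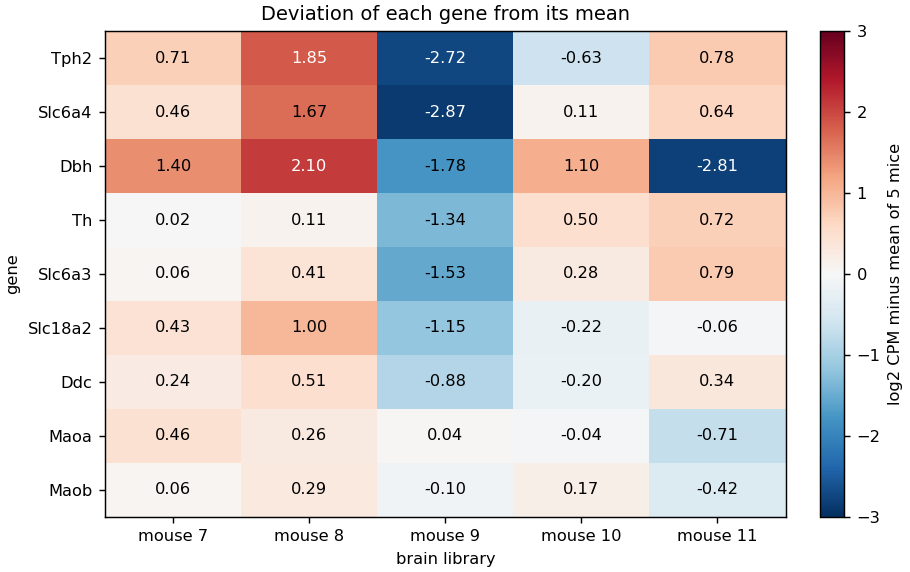
Log2 CPM of each gene (rows) in each brain (columns) minus the gene's mean over the 5 mice, printed in each cell and coloured from blue (lower) to red (higher). Mouse 9 is at or below -0.88 for the 7 synthesis and transport genes and at 0.04 and -0.10 for Maoa and Maob; Dbh is lowest in mouse 11.

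To compare this spread with that of other genes, variation between mice was tested in edgeR by a quasi-likelihood fit to the counts, in which each gene's dispersion is set against that of genes of like abundance. Of the 16318 genes that averaged 10 or more counts, 0 had a Benjamini-Hochberg adjusted p under 0.05 (0% of all, smallest adjusted p 0.585 in edgeR), and so 0 of the 9 members did. The test finds only spread beyond that of genes of like abundance, so 0 calls do not mean that levels were equal between mice. At an unadjusted p under 0.05, which 4.82% of all genes reached, 6 of the 9 members passed. Ordered by p over all 16318 genes, Tph2 came 6th, Slc6a4 22nd, Slc18a2 154th, Slc6a3 190th, Dbh 219th and Th 350th, each with an adjusted p of 0.981 in edgeR. Ddc, Maoa and Maob, which came 976th, 1918th and 6725th, did not pass. Without mouse 9, 2 members passed at the unadjusted level, Tph2 and Dbh, as did 4.61% of all genes. With no filter on low counts, 4 members passed the adjusted threshold in edgeR, namely Tph2 (adjusted p = 0.000152), Slc6a4 (0.00143), Slc18a2 (0.0342) and Slc6a3 (0.0472), among 230 of 28335 genes (0.812%). Of the 9 members 0 had a sample that stood outside the rest by Dixon's criterion, as 12.0% of all genes did.

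The SD of log2 CPM had a median of 0.80 over the 9 members and 0.30 over all genes tested. It was 2.16 for Dbh, 1.76 for Tph2, 1.71 for Slc6a4, 0.90 for Slc6a3, 0.80 for Th and Slc18a2, 0.56 for Ddc, 0.44 for Maoa and 0.28 for Maob. The share of all tested genes with a smaller SD was 99.9% for Tph2, 99.8% for Slc6a4, 97.0% for Slc6a3, 84.8% for Ddc and 45.1% for Maob. Without mouse 9 the median over the members was 0.51, and the SD was 1.02 for Tph2, 0.67 for Slc6a4, 0.33 for Th, 0.31 for Slc6a3 and 0.30 for Ddc. Without mouse 11 it was 0.22 for Maoa and 0.17 for Maob. In CPM, 6 of the 9 members were lowest in mouse 9, as were 15.4% of all genes tested, and 6 were highest in mouse 8, as were 12.3% of all. Th and Slc6a3 were highest in mouse 11, as were 37.6% of all. The other 3 members, Dbh, Maoa and Maob, were lowest in mouse 11, where 32.7% of all genes were lowest.

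**Figure D4:**
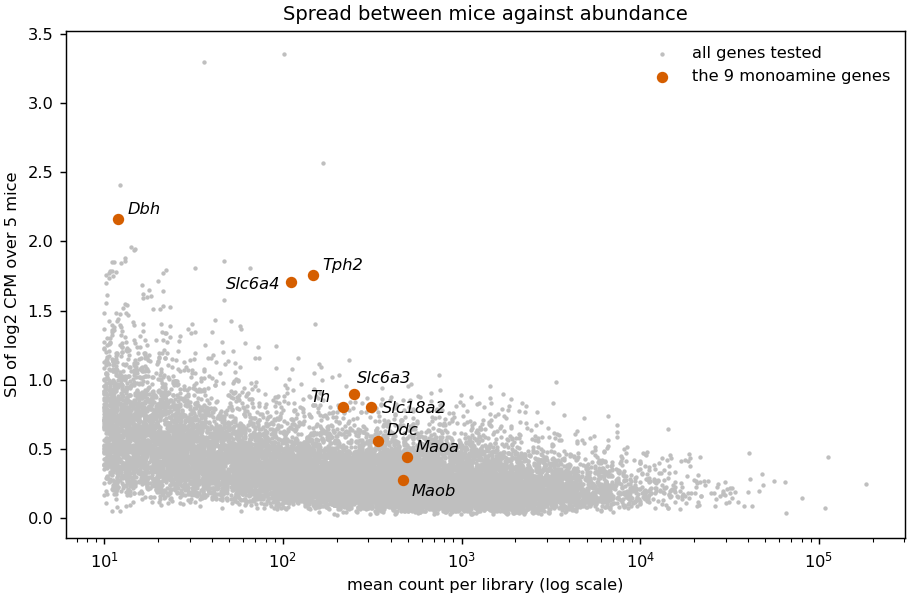
SD of log2 CPM over the 5 mice (y axis) against mean count per library (x axis, log scale) for the 16318 genes tested (grey) and the 9 monoamine genes (orange). Dbh, Tph2 and Slc6a4 lie at the upper edge for their abundance, with SDs of 2.16, 1.76 and 1.71, and Maob lies in the middle of the cloud with 0.28.

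Other genes of the pathway had smaller median spreads than the members. The hydroxylases need the cofactor tetrahydrobiopterin. Of 7 tested genes for its synthesis and recycling 0 had an unadjusted p under 0.05 in edgeR, which 4.82% of all genes reached, with a median SD of 0.36. At that share a count of 0 in so short a list does not set it apart from other genes. Gch1, which starts cofactor synthesis, had 28, 75, 31, 48 and 29 counts, highest in mouse 8 but not lowest in mouse 9. Qdpr, which recycles the cofactor, had 58.2 ± 4.76 RPKM. Of 11 other breakdown genes 0 reached an unadjusted p under 0.05 in edgeR, again near the 4.82% of all genes, with a median SD of 0.23. Among them were Aldh1a1 (an aldehyde dehydrogenase of some dopamine neurons, 21.6 ± 7.17 RPKM), Akr1a1 (aldehyde reductase, 98.0 ± 9.32) and Comtd1 (0.88 ± 0.186). Of 4 other transporters tested, 1 reached an unadjusted p under 0.05 in edgeR, the noradrenaline transporter Slc6a2 (adjusted p = 0.981). The median SD of these 4 was 0.56, above the 0.30 of all genes tested, and the SD of Slc6a2 was 1.61. Slc29a4, a low-affinity monoamine carrier, had 4.76 ± 1.08 RPKM. Hdc, which makes histamine, had 0.382 ± 0.145 RPKM and was highest in mouse 11. Tph1, the tryptophan hydroxylase of peripheral tissues and the pineal gland, had 4 to 7 counts per library, Pnmt, which makes adrenaline, 1 to 6, and Asmt, which makes melatonin, 0 in every library.

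Markers of the monoamine nuclei followed the members only in part. Of all genes tested, 15.4% were lowest in mouse 9. The counts below for serotonin markers (2 of 8) and noradrenaline markers (1 of 5) are not far from that share. Of 8 tested markers of dopamine neurons, 5 were lowest in mouse 9, where the mean log2 deviation of the list was -0.72, against -0.14, 0.47, 0.06 and 0.33 in mice 7, 8, 10 and 11. In mouse 8, 4 of these 8 markers were highest, as were 12.3% of all genes tested. In mouse 11, 3 were highest, as were 37.6% of all. En1, a midbrain transcription factor, had 9, 34, 4, 19 and 46 counts, and Lmx1a, the lowest of those tested, 12, 20, 3, 13 and 3. Pitx3 had 0 counts in mice 7, 8 and 9 and 5 in mice 10 and 11. Of 8 tested markers of serotonin neurons 2 were lowest in mouse 9, with mean deviations of -0.38, 0.06, -0.25, 0.08 and 0.49. Fev, the serotonin neuron transcription factor, had 4, 8, 1, 4 and 29 counts, lowest in mouse 9 like Tph2 but highest in mouse 11. Lmx1b had 0.153 ± 0.0396 and Htr1a, a receptor also made in the hippocampus, 5.78 ± 1.20 RPKM. Of 5 tested markers of noradrenaline neurons 1 was lowest in mouse 9, with Cartpt at 10.7 ± 4.96 and Calca at 0.923 ± 0.65 RPKM.

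Genes of regions that hold or adjoin these neurons also differed between the mice, and their part in the results above was not tested. Slc6a5, the glycine transporter of brainstem and spinal cord neurons, had 159, 367, 38, 152 and 44 counts, or 1.42, 3.31, 0.337, 1.32 and 0.326 RPKM. It was highest in mouse 8 and low in mice 9 and 11, as Dbh was. It was the 1 gene tested of a list of 9 hindbrain genes. The other 8 had at most 5 counts, and the summed level of the list was 10.9, 25.3, 2.43, 9.66 and 2.46 CPM. Of 8 tested hypothalamus genes 7 were lowest in mouse 9, against 15.4% of all genes tested, and their median SD was 0.88. The summed level was 28.9, 29.2, 11.6, 19.9 and 45.3 CPM, with Avp (vasopressin) at 12.2 ± 10.5 and Sim1 at 0.131 ± 0.101 RPKM. Of 8 tested olfactory bulb genes 3 were lowest in mouse 9, and their median SD was 0.58. Their mean log2 deviations were 0.08, -0.08, -0.57, 0.45 and 0.11 in mice 7 to 11. The summed level was 87.3, 75.2, 76.0, 84.8 and 82.6 CPM, with Tshz1 (mean count 795) and Cdhr1 (304) as its largest parts. Lhx1, of the same list, had 40, 54, 7, 83 and 44 counts. Tshz1 had 8.62 ± 0.618 and Eomes 0.368 ± 0.198 RPKM. The summed level of 8 cerebellum genes was 243, 171, 167, 321 and 161 CPM, with Calb1 at 20.4 ± 5.33 and Pcp2 at 0.555 ± 0.764 RPKM. It was highest in mouse 10. Of these 8 genes 5 had an unadjusted p under 0.05 in edgeR, against 4.82% of all genes. Their median SD of 1.42 exceeded the 0.80 of the members, so a wide spread was not particular to the members. Cbln3 had 91, 5, 0, 391 and 22 counts and Fat2 160, 21, 15, 638 and 9. Both had the smallest adjusted p of all genes tested (0.585 in edgeR). The summed level of 8 striatum genes, which mark the main target of dopamine fibres, was 513, 596, 612, 581 and 746 CPM, and mouse 9 was not low. In that list Penk had 114 ± 19.5 and Gpr6 5.32 ± 1.16 RPKM. Cholinergic neuron genes, with Slc5a7 at 2.02 ± 0.447 and Isl1 at 0.893 ± 0.31 RPKM, summed to between 19.5 and 26.2 CPM. Of genes shared with the chromaffin cells of the adrenal gland, Chgb had 96.5 ± 12.9 and Chga 61.0 ± 11.7 RPKM, while the adrenal enzymes Cyp11b1 and Cyp21a1 had at most 1 and 0 counts.

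**Figure D5:**
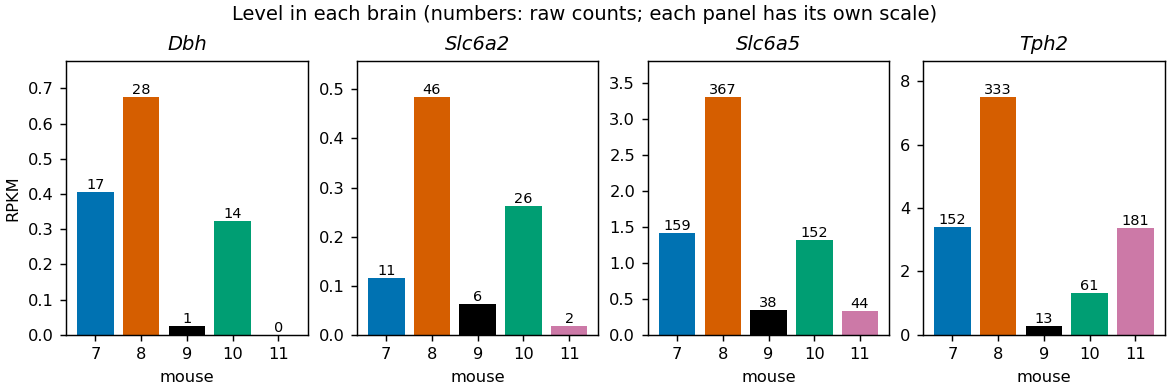
RPKM (y axis, own scale in each panel) of Dbh, Slc6a2, Slc6a5 and Tph2 in the 5 mice (x axis), with raw counts above the bars. All 4 genes are highest in mouse 8; Dbh, Slc6a2 and Slc6a5 are low in mice 9 and 11, while Tph2 is low in mouse 9 (13 counts) and not in mouse 11 (181 counts).

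For each member with an SD above 0.5, the genes outside the list with the most similar pattern were taken by the smallest root mean square difference of centred log2 CPM over the 5 mice, among 13593 genes that averaged 30 or more counts. The nearest to Dbh was Slc6a5 (0.80), and then Ogn, Lox, Clec7a and Muc6 (1.04 to 1.20). For Tph2 they were Gbp4 (0.73), Irs4 (0.86), Otp (0.90), Sytl4 (0.91) and Gabre (0.94), and for Slc6a4 Gbp4 (0.77), Gna15 (0.78), Lhx1 (0.79), Cst7 (0.82) and Sytl4 (0.87), so no other gene came as near to either as they came to each other (0.37). For Th the nearest were Proser3 (0.20), Nuak2, Sox7, Sh3bp2 and Siglec1 (0.22 each), and for Slc6a3 Hbb-bt (0.20), Gna15 (0.23), Sox7, Ndufa4l2 (0.28 each) and Siglec1 (0.30). Slc18a2 lay nearest to Irs4 (0.20), Otp (0.23), Gm38104, Gm10767 (0.24 each) and Rtp4 (0.25). Ddc lay nearest to Rtp4 (0.09), Alas2 (0.10), Irf7, Vwa5b1 and Rnf113a1 (0.12 each). Irs4 and Otp are expressed in the hypothalamus, and Alas2 and Hbb-bt belong to red blood cells. The other neighbours, among them Gbp4, Rtp4 and Irf7, were not sorted by cell type or function. A link of any such group to the members was not tested.

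All 9 genes are protein coding. On GRCm38 with GENCODE M21, Th (ENSMUSG00000000214) lies on chromosome 7 from 142892752 to 142931128, Ddc (ENSMUSG00000020182) on chromosome 11 from 11814101 to 11898144, and Slc18a2 (ENSMUSG00000025094) on chromosome 19 from 59260896 to 59296012. Slc6a3 (ENSMUSG00000021609) lies on chromosome 13 from 73536747 to 73578672, Dbh (ENSMUSG00000000889) on chromosome 2 from 27165233 to 27183200, Tph2 (ENSMUSG00000006764) on chromosome 10 from 115078641 to 115185022 and Slc6a4 (ENSMUSG00000020838) on chromosome 11 from 76998603 to 77032340. Maoa (ENSMUSG00000025037) and Maob (ENSMUSG00000040147) lie beside each other on chromosome X, from 16619698 to 16687818 and from 16709282 to 16817366, on opposite strands. Antisense genes overlap Ddc, Slc18a2 and Slc6a4. Each had at most 1 count in any library, and only that of Slc18a2 shares exon bases with the member, 2.1% of its exon length.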

How the data were processed

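Counts (whole numbers) and RPKM for 47729 Ensembl genes in 5 libraries were deposited by the authors. The submitters' processing notes name GRCm38 and the tools STAR 2.4.1d, featureCounts 1.4.6-p4 and CASAVA 1.7. Settings, annotation release and strand handling are not given in the sources used here. The deposited RPKM matched library totals taken in turn down the table for 12729 of 12729 genes checked and own totals for 0 (gene lengths within 1%), and lay between 0.821 and 1.22 times the recomputed values. RPKM were therefore recomputed from the counts with each library's own total and the implied gene length. Symbols came from GENCODE M21 (47224 genes matched) and promoters from RefSeq.

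Differences between mice were tested in edgeR 4.0.16 with limma 3.58.1 (TMM scaling, intercept only, minimum mean count 10, Benjamini-Hochberg threshold 0.05). Log2 CPM used a prior count of 1. Every pair of libraries differed by more than sampling noise (mean chi-square per gene of at least 7.02), so all 5 were kept. Named were all members, the highest and lowest tested gene of each list, list genes called variable and the 5 nearest genes; other list genes were chosen after their values were seen, and a few list genes are not reported here. Members and lists were chosen with earlier results of these data known. Alternatives changed the scaling (DESeq2 1.42.0 size factors, library size), filter, F fit, prior count, pseudocount, gene length, RPKM source, GC and length trend, and mice.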

Additional observations from a re-analysis of the deposited data

How the results depend on the processing

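The count of members with an adjusted p under 0.05 in edgeR was 0 under every scaling, with the stricter filter, with the non-robust fit and without each mouse in turn, and 4 with no filter on low counts, where 230 genes in all passed. The count at an unadjusted p under 0.05 was 2 to 7 when a mouse was left out, with 2 without mouse 9, and 5 to 8 otherwise. The cause of the 4 calls was not tested. The members' median SD of log2 CPM was 0.51 without mouse 9 and between 0.79 and 0.92 under the other alternatives. Without mouse 9 the SD fell to 0.33 for Th, 0.30 for Ddc, 0.31 for Slc6a3, 0.67 for Slc6a4 and 1.02 for Tph2, and without mouse 11 to 0.22 for Maoa and 0.17 for Maob. Removal of the GC and length trend gave 0.17 for both oxidases. With a prior count of 5 that of Dbh was 1.22. The number of pairs with 1 sign in every mouse was 7 of 14 under most alternatives, 9 without mouse 8 and 5 of 12 at a mean of at least 0.3 RPKM. The mean log2 ratio of Th over Slc18a2 turned to -0.02 without mouse 10 and -0.04 without mouse 11. That of Slc18a2 over Ddc turned to -0.43 with M21 exon lengths, -0.03 without mouse 7 and -0.10 without mouse 8. Leaving out each mouse gave -0.04 to 0.38 for the first and -0.10 to 0.12 for the second. That of Th over Ddc ran from 0 to 0.28 when a mouse was left out, and that of Maoa over Th was 0.16 without mouse 9 and 0.85 without mouse 11. With a pseudocount of 1 the mean was 2.28 for Th over Dbh, 0.86 for Slc6a4 over Dbh and 1.12 for Slc6a3 over Slc6a4. No other pair turned. No comparison between groups of mice, paired or not, was possible because the labels give a single group. The ratios between genes were taken within each mouse. Dbh, with a mean count of 12, was left out by the filter at a mean count of at least 50, and also without mouse 8. In those 2 settings 8 members were tested. Counting error limits the values of Dbh.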
